A study of Mus musculus with 11 samples.

Results

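Transcripts of 10 genes that write, erase or regulate DNA methylation were followed in mouse embryonic stem cells in which the architectural protein CTCF had been depleted, or depleted and replaced. The genes were taken by symbol: the methyltransferase genes Dnmt1, Dnmt3a, Dnmt3b and Dnmt3l, the maintenance factor Uhrf1, the dioxygenase genes Tet1, Tet2 and Tet3, the glycosylase Tdg and the transcriptional regulator Prdm14. They are 10 of the 55228 symbols in the count table, and all 10 were among the 16420 genes with enough reads to test. All cells were of the EN52.9.1 line, whose endogenous CTCF carries an auxin-inducible degron (CTCF-AID), so that the untreated controls carried the degron as well. They were grown in serum medium with leukemia inhibitory factor. The groups were EV untreated (3 libraries, labelled wild-type), EV auxin (2 libraries, endogenous CTCF depleted), FL auxin (3 libraries, FL CTCF reintroduced) and H373R auxin (3 libraries, H373R CTCF reintroduced; their titles read ZF4). The auxin analogue indole-3-acetic acid was used at 500 µM. How long auxin was given, how the 2 CTCF forms were expressed and at what level are not given in the sources used here. No auxin-treated cells without the degron were analysed here, so an effect of auxin itself and an effect of CTCF loss cannot be told apart. No untreated cells with FL or H373R CTCF were analysed here either. Comparisons of these groups with EV untreated thus change auxin and the introduced construct together. In their comparisons with EV auxin and with each other, the CTCF form and any other difference between the cells carrying each construct cannot be told apart.

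DNA methylation at CpG sites is laid down by the de novo enzymes DNMT3A and DNMT3B, helped by the catalytically inactive DNMT3L, and is copied at replication by DNMT1, which UHRF1 brings to hemimethylated DNA. TET proteins oxidise methylcytosine, and TDG excises some of the oxidised bases so that repair can restore cytosine. In mouse embryonic stem cells PRDM14 is known as a repressor of the de novo methyltransferase genes, and CTCF is known to bind many of its sites less well when they are methylated. The libraries measure transcripts and hold no measurement of methylation itself.

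Total counts were 13465241 to 29902246 per library, and counts of the 10 genes made up 0.176% to 0.192% of them. EV untreated replicate 1 stood apart from its group. Its deviation from the mean of its own group, gene by gene, followed GC content with r = 0.559 across 16242 genes, which are not independent replicates. By the same measure EV untreated replicates 2 and 3 were at -0.376 and -0.318, and FL auxin replicate 1 was at 0.325. Results of the 10 genes against EV untreated were therefore also computed without EV untreated replicate 1. Ctcf mRNA, which a degron acting on the protein need not alter, was at 294 to 344 CPM (counts scaled to library size) in EV untreated. It was at 359 to 364 CPM in EV auxin, 328 to 350 CPM in FL auxin and 306 to 330 CPM in H373R auxin. Ctcf passed the test in no comparison, and whether its counts include the reintroduced forms was not tested. The 7 embryonic stem cell markers summed to 7348 to 7916 TPM (a unit scaled to both gene length and library size) in EV untreated. They summed to 7528 to 7731 TPM in EV auxin, 7035 to 7257 TPM in FL auxin and 6994 to 7008 TPM in H373R auxin. None of the 7 was under 1 TPM in any group. Of 6 fibroblast markers, Postn, Dcn and Lum were under 1 TPM in every group, and the list summed to 48.0 to 71.8 TPM. The 6 primitive endoderm markers also differed between groups: they summed to 18.1 to 19.3 TPM in EV untreated, 21.7 to 21.95 TPM in EV auxin, 61.6 to 66.7 TPM in FL auxin and 39.9 to 44.1 TPM in H373R auxin. None of them was at 0, and their part in the results below was not tested. The 6 trophoblast markers summed to 94.2 to 106.8 TPM in EV untreated and to 129 to 165 TPM in the auxin groups, with Gata3 and Elf5 under 1 TPM throughout. Of the others, Krt18 was at 63.3 to 113 TPM, Krt8 at 24.3 to 53.2 TPM, Eomes at 3.94 to 6.40 TPM and Cdx2 at 0.996 to 4.01 TPM. The 4 neural markers summed to 369 to 438 TPM in EV untreated, 415 to 427 TPM in EV auxin, 304 to 350 TPM in FL auxin and 353 to 363 TPM in H373R auxin. The 5 epiblast markers summed to 43.5 to 46.6, 49.1 to 51.1, 48.4 to 56.6 and 49.6 to 52.5 TPM in the same order. In bulk RNA of this kind, fewer cells of a type and less RNA per cell cannot be told apart. The labels do not say whether libraries of a group came from separate cultures, so p-values measure only the spread between these libraries, which may be technical.

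Per unit of length, the maintenance and accessory genes were the most abundant of the 10. Over all 11 libraries Uhrf1 averaged 287 TPM, Dnmt3l 275 TPM and Dnmt1 209 TPM, each above 94% of the genes tested. Dnmt3b averaged 147 TPM and Dnmt3a 54.2 TPM. In TPM, Dnmt3b was thus the higher of the 2 de novo enzyme transcripts in every library, with Dnmt3a at 0.320 to 0.442 of its level. That order rests on the merged exon length by which TPM divides, 16642 bases for Dnmt3a and 5106 bases for Dnmt3b. In CPM, which takes no account of length, Dnmt3a had the higher mean in every group, from 208 against 169 in EV untreated to 229.9 against 219.5 in H373R auxin. Tet1 averaged 64.4 TPM, Tet2 19.0 TPM and Tet3 2.77 TPM. Tet1 made up 73.0% to 78.1% of the summed Tet transcripts, and Tet3, at the 21.9th percentile of the genes tested, was the least abundant of the 10. Prdm14 averaged 55.7 TPM and Tdg 15.5 TPM.

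**Figure D1:**
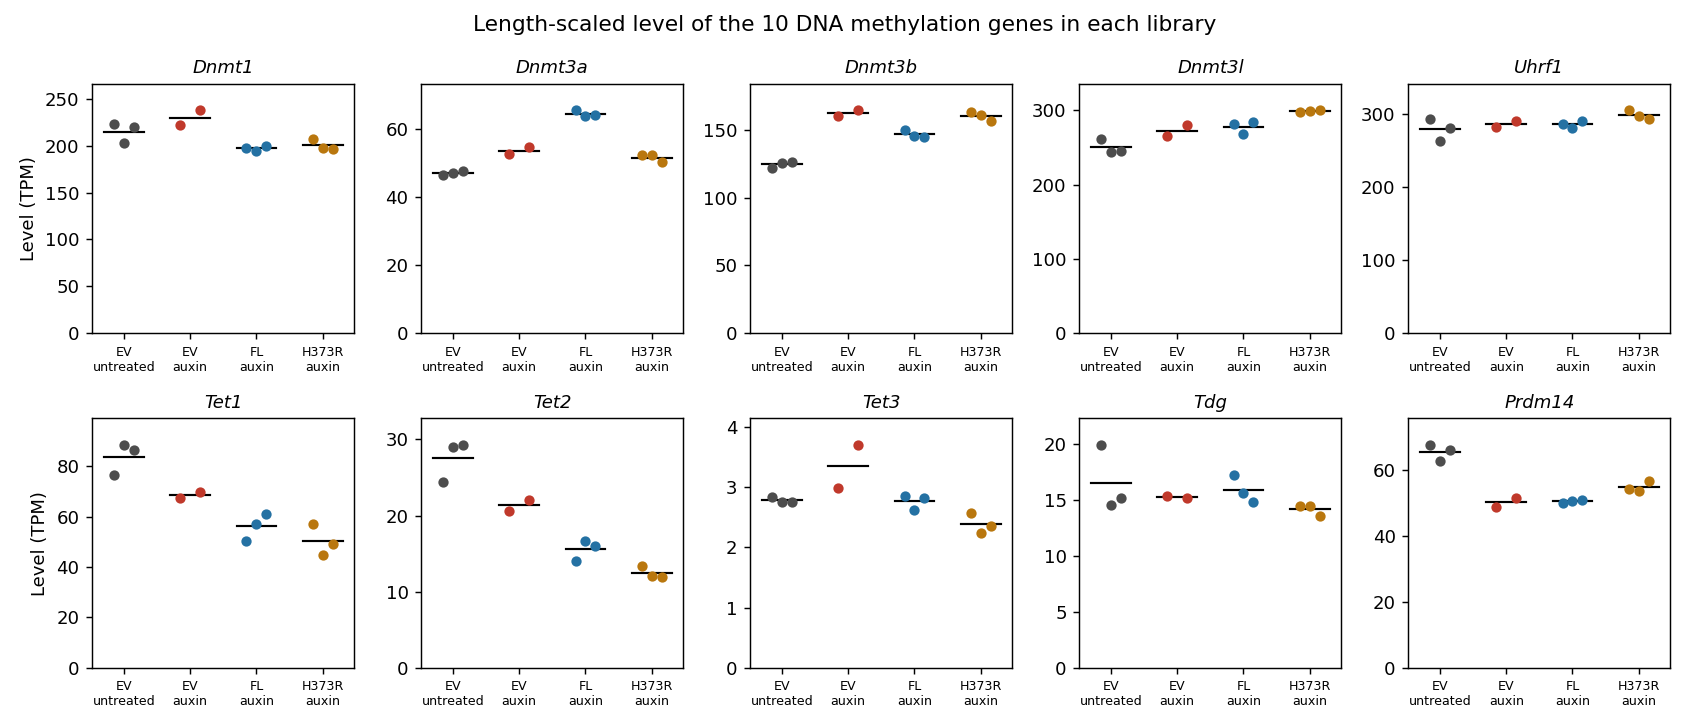
Level of each of the 10 genes in TPM (vertical axes, each from 0) in the 11 libraries, grouped on the horizontal axis; each point is a library and each line a group mean. Tet1 and Tet2 step down from EV untreated to H373R auxin, Dnmt3a peaks in FL auxin at 63.9 to 65.4 TPM, and Dnmt3b and Prdm14 separate EV untreated from the 3 auxin groups.

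Differences between groups were tested with edgeR's quasi-likelihood test on the counts, with Benjamini-Hochberg adjustment over all 16420 genes and a threshold of 0.05. A gene is called when it passed that threshold, and a fold change is written as the log2 difference ± its standard error (SE).

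Depletion of endogenous CTCF was followed by higher transcripts of both de novo enzymes and lower transcripts of 2 Tet genes and Prdm14. In EV auxin against EV untreated, 5 of the 10 genes were called. Of all genes tested 20.7% were called, 11.3% as higher and 9.4% as lower. Dnmt3a and Dnmt3b rose, and Tet1, Tet2 and Prdm14 fell. The libraries of the 2 groups did not overlap for 7 of the 10 genes, against 44.9% of all genes. The median absolute log2 fold change of the 10 was 0.20, against 0.16 for all genes tested. Compared with EV auxin it was 0.14 against 0.19 in FL auxin and 0.16 against 0.18 in H373R auxin. Compared with EV untreated it was 0.23 against 0.20 in FL auxin and 0.23 against 0.23 in H373R auxin. In H373R auxin against FL auxin it was 0.14 against 0.11. The 5 calls in EV auxin against EV untreated stood without EV untreated replicate 1. Dnmt3l (0.12, adjusted p = 0.0476 by edgeR) and Tet3 (0.26, adjusted p = 0.0436) were then added. The count fell to 3 without EV untreated replicate 3 or EV auxin replicate 2, which each lost Dnmt3a and Tet1, and without EV auxin replicate 1, which lost Dnmt3a, Tet1 and Tet2 and added Tet3. Dnmt3b and Prdm14 were called whichever library was left out.

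Cells given FL CTCF differed from untreated cells at 6 of the genes. Against EV auxin, FL auxin had 3 genes called, beside 24.5% of all genes (11.1% higher, 13.4% lower). Dnmt3a rose further, and Dnmt1 and Tet2 fell. Libraries did not overlap for 9 of the 10 genes, against 53.9% of all genes. Tet2 and Dnmt3a thus moved further from the EV untreated level, and no gene that EV auxin had changed was called in the opposite direction. Against EV untreated, FL auxin had 6 genes called, beside 36.9% of all genes (17.7% higher, 19.2% lower), and 7 did not overlap, against 43.4% of all genes. Dnmt3a, Dnmt3b and Dnmt3l were higher and Tet1, Tet2 and Prdm14 lower. Of these 6, Dnmt3l had not been called in EV auxin against EV untreated.

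Cells given H373R CTCF had 5 of the genes called against EV auxin, beside 21.7% of all genes (10% higher, 11.7% lower), and 8 of the 10 did not overlap, against 57% of all genes. Dnmt3l rose, and Dnmt1, Tet1, Tet2 and Tet3 fell. Against EV untreated, 6 were called, beside 44.4% of all genes (22.3% higher, 22.1% lower). They were the 6 genes called for FL auxin, in the same directions, and both comparisons share the EV untreated libraries. For 8 of the 10 the libraries did not overlap, against 51% of all genes. The comparisons with EV auxin share its 2 libraries, and rest on them. Without EV auxin replicate 2 only Tet2 was still called in H373R auxin against EV auxin and only Dnmt3a in FL auxin against EV auxin.

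The 2 forms of CTCF differed at 2 of the 10 genes. In H373R auxin against FL auxin, Dnmt3a and Tet2 were lower. Of all genes 5.96% were called in this comparison, 3.14% as higher and 2.82% as lower. Libraries did not overlap for 7 of the 10 genes, against 28.8% of all genes. The count rose to 5 without EV untreated replicate 1, a library outside the comparison that contributes to the shared estimate of spread, with Tet1, Tet3 and Tdg added as lower. It fell to 1, Dnmt3a, without any of FL auxin replicates 2 and 3 and H373R auxin replicates 2 and 3.

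**Figure D2:**
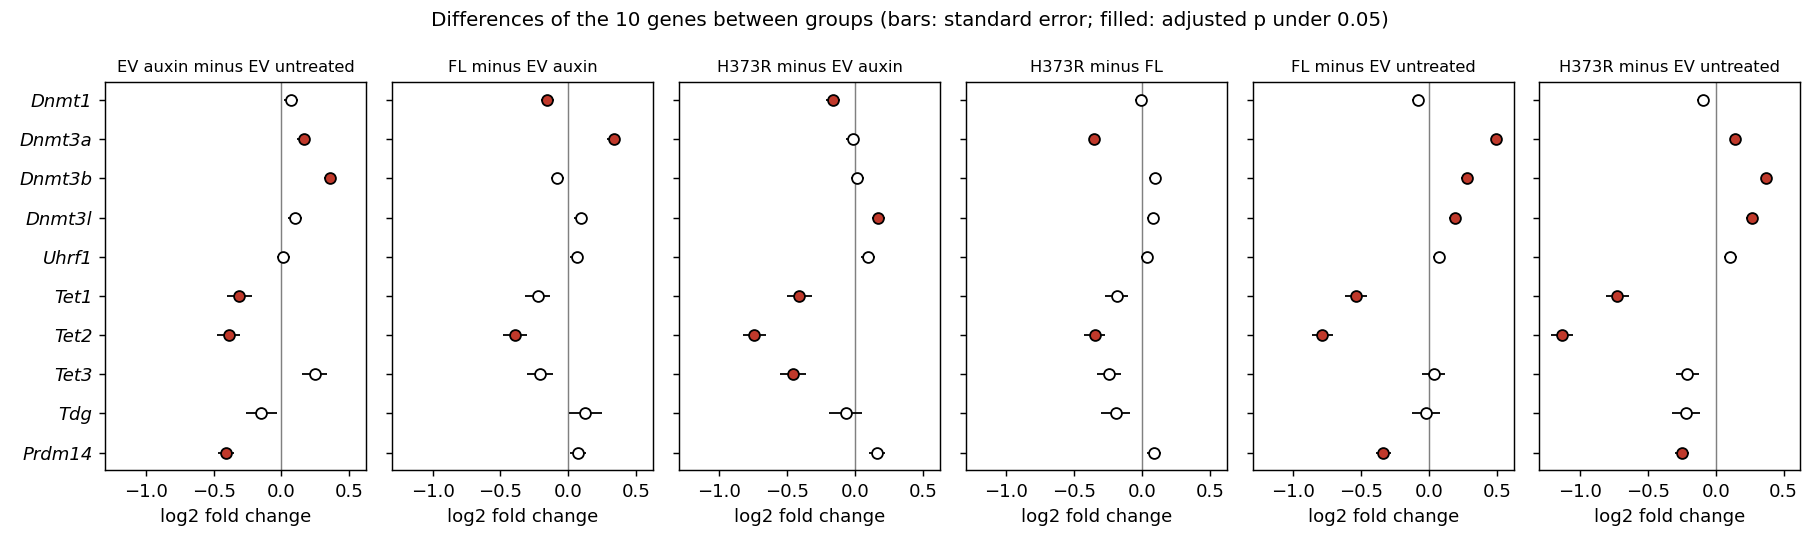
Log2 fold change of the 10 genes (rows) in the 6 comparisons (panels), the first-named group minus the second; bars are the SE of the edgeR model and filled points had an adjusted p under 0.05. Tet2 is filled to the left of 0 in all 6 panels, and Dnmt3a is to the right against EV untreated and to the left in H373R minus FL.

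Among the erasers, Tet2 was the gene that differed in every comparison. Its gene (ENSMUSG00000040943.12, GRCm38 chr3:133463679-133545139, minus strand, 14 merged exon blocks) encodes a TET dioxygenase that lacks a CXXC domain of its own. In CPM, Tet2 read 110.0, 131 and 129.7 in EV untreated, 92.2 and 96.2 in EV auxin, 64.5, 78.0 and 73.2 in FL auxin, and 60.4, 54.8 and 53.6 in H373R auxin. EV untreated was the highest group, followed by EV auxin, then FL auxin and last H373R auxin, and no 2 neighbouring groups overlapped. The group means were 124 ± 11.8 (SD, n = 3), 94.2 ± 2.84 (n = 2), 71.9 ± 6.83 (n = 3) and 56.3 ± 3.65 CPM (n = 3).

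Tet2 fell by 0.39 ± 0.086 in EV auxin against EV untreated (edgeR adjusted p = 0.00437). It fell by 0.39 ± 0.087 again in FL auxin against EV auxin (adjusted p = 0.00436) and by 0.74 ± 0.087 in H373R auxin against EV auxin (adjusted p = 7.08e-05). Against EV untreated, the level was 0.581-fold in FL auxin and 0.456-fold in H373R auxin (log2 -0.78 ± 0.078 and -1.13 ± 0.078, adjusted p = 2.96e-06 and 3.71e-08). In H373R auxin it was 0.785 of the FL auxin level (log2 -0.35 ± 0.080, adjusted p = 0.0169). This last call was lost in 8 of 23 alternative settings, among them limma on log2 TPM and leaving out FL auxin or H373R auxin replicates 2 or 3, with adjusted p up to 0.152. The direction was negative in all of them. The calls against EV auxin and EV untreated rested less on single libraries: those of H373R auxin against both, and of FL auxin against EV untreated, held in all 23 settings. The fall in EV auxin lost its call without EV auxin replicate 1 and also by limma on log2(TPM + 1) with no TPM filter. The fall from EV auxin to FL auxin lost its call without EV auxin replicate 2. Each of these had an adjusted p of at most 0.0648.

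Tet1 (ENSMUSG00000047146.17, chr10:62804570-62908996, minus strand), which encodes a TET dioxygenase with a CXXC domain and is the most abundant Tet transcript here, had the same order of groups. It read 315, 367 and 352 CPM in EV untreated, 277 and 279 CPM in EV auxin, 213, 245 and 255 CPM in FL auxin, and 236, 186 and 203 CPM in H373R auxin. EV untreated, EV auxin and FL auxin did not overlap with their neighbours, whereas FL auxin and H373R auxin did. Tet1 fell by 0.31 ± 0.093 in EV auxin against EV untreated (adjusted p = 0.0263). This call was lost in 8 of 23 settings, with adjusted p up to 0.185, including when either EV auxin library or EV untreated replicate 2 or 3 was left out. It fell by 0.41 ± 0.092 in H373R auxin against EV auxin (adjusted p = 0.00512), a call lost without EV auxin replicate 2 (adjusted p = 0.0509). FL auxin against EV auxin (-0.23 ± 0.092, adjusted p = 0.0872) and H373R auxin against FL auxin (-0.19 ± 0.083, adjusted p = 0.216) were not called. Both were called with no filter on low counts (adjusted p = 0.00306 and 0.0273) and without EV untreated replicate 1 (adjusted p = 0.0215 and 0.043), and the first also with only the libraries compared (adjusted p = 0.0127). Against EV untreated, Tet1 was 0.689-fold in FL auxin and 0.605-fold in H373R auxin (adjusted p = 0.000151 and 5.73e-06), in all 23 settings.

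Tet3 (ENSMUSG00000034832.15, chr6:83362373-83459084, minus strand), the TET gene best known from the oocyte and zygote, was low in all groups. It read 12.6, 12.3 and 12.1 CPM in EV untreated, 13.2 and 15.9 CPM in EV auxin, 13.03, 12.2 and 12.7 CPM in FL auxin, and 11.5, 10.1 and 10.5 CPM in H373R auxin. EV auxin was the highest group and H373R auxin the lowest, below every other library. Tet3 fell by 0.46 ± 0.095 in H373R auxin against EV auxin (adjusted p = 0.0034) and was called in no other comparison as reported. Without EV auxin replicate 2, the highest library, this call was lost as well. It was also lost by limma on log2(TPM + 1) with no TPM filter (adjusted p up to 0.114 over the settings). With GC and length trends removed, Tet3 was also called in EV auxin and FL auxin against EV untreated (0.29 and 0.23, adjusted p = 0.00583 and 0.0124; 0.25 and 0.035 as reported) and in H373R auxin against FL auxin (-0.26, adjusted p = 0.0221). H373R auxin against EV untreated went from -0.21 (adjusted p = 0.0568) to -0.032 in that fit, and was called in 5 other settings, among them without H373R auxin replicate 1 or either EV auxin library (lowest adjusted p = 0.0343).

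Summed over the 3 genes, Tet transcripts were at 114 ± 9.03 TPM (SD, n = 3) in EV untreated, 93.4 ± 3.19 TPM (n = 2) in EV auxin, 74.5 ± 6.61 TPM (n = 3) in FL auxin and 65.1 ± 7.20 TPM (n = 3) in H373R auxin. FL auxin and H373R auxin overlapped in this sum, at 67.1 to 79.8 and 58.9 to 73.0 TPM. Tet1 fell less than Tet2: the ratio of Tet1 to Tet2 TPM was 2.96 to 3.13 in EV untreated, 3.16 to 3.28 in EV auxin, 3.43 to 3.80 in FL auxin and 3.71 to 4.26 in H373R auxin.

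Tet1 and Tet2 are long and relatively poor in GC: their merged exons span 15457 and 16870 bases and their longest transcripts hold 43.7% and 45.4% GC, against 50.5% to 54.0% for the other genes apart from Tdg (47.9%). Trends of each library with GC content and length were therefore removed in a further fit, chosen after the data were seen. It made the Tet1 differences smaller by over 1.5 times. H373R auxin against EV untreated went from -0.72 to -0.39 (adjusted p = 2.63e-06), FL auxin against EV untreated from -0.54 to -0.28 (adjusted p = 0.000194) and EV auxin against EV untreated from -0.31 to -0.19 (adjusted p = 0.0168). Against EV untreated and against FL auxin, Tet2 kept more of its difference, at -0.80 in H373R auxin and -0.52 in FL auxin against EV untreated, and -0.29 in H373R auxin against FL auxin (adjusted p = 2.9e-11, 3.15e-08 and 0.000461). Its fall from EV auxin to FL auxin shrank about as much as the Tet1 differences, from -0.39 to -0.24 (adjusted p = 0.0012). All Tet1 and Tet2 calls stood in this fit. The sizes of the Tet1 and Tet2 differences thus depend on whether such trends are taken as technical, which was not tested.

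Since Tet1 and Tet2 fell together, the bases before their RefSeq starts are shown, from RefSeq windows of 300 bases on GRCm38.p6 (250 before to 50 after the start), leaving out annotated exons. Tet2 is chr3:133544391-133544640 and Tet1 chr10:62887325-62887412, both on the minus strand and 5′ to 3′.
Tet2: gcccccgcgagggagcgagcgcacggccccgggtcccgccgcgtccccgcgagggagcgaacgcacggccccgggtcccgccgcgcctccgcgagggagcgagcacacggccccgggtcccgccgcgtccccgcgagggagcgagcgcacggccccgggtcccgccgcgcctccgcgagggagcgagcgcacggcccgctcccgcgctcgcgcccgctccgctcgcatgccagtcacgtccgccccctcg
Tet1: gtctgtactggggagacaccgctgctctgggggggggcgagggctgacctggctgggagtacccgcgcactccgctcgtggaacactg
The Tet2 stretch is a tandem repeat: the 12 bases ccgcgagggagc occur 5 times, and the 250 bases hold 51 CpG sites at 83.6% GC. The Tet1 stretch of 88 bases holds 6 CpG sites at 69.3% GC. Both windows therefore differ in GC from the transcripts they precede.

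**Figure D3:**
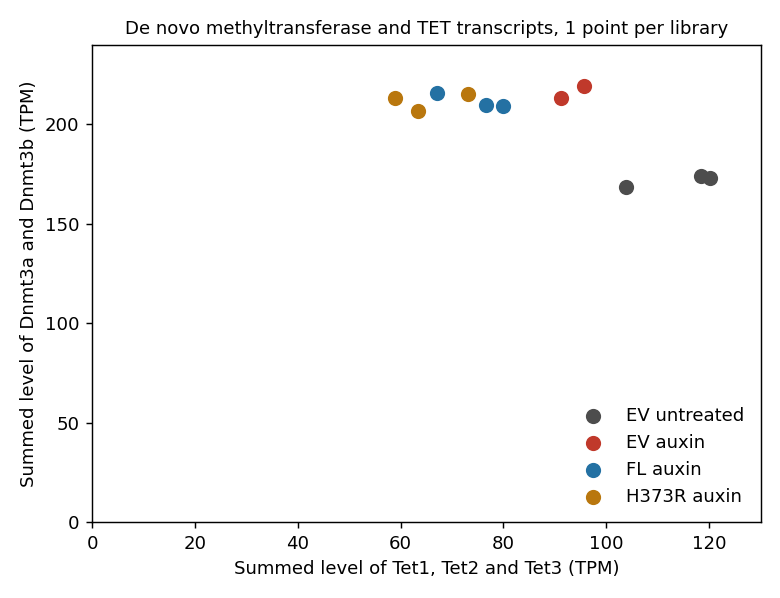
Summed level of Dnmt3a and Dnmt3b (vertical axis, TPM) against the summed level of Tet1, Tet2 and Tet3 (horizontal axis, TPM), 1 point per library, both axes from 0. The 3 EV untreated libraries lie apart at 104 to 120 TPM of Tet and 169 to 174 TPM of de novo enzyme transcripts, and the auxin libraries lie at 207 to 219 TPM of the latter and 58.9 to 95.7 TPM of Tet.

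Among the writers, the 2 de novo enzyme genes followed different patterns. Dnmt3a (ENSMUSG00000020661.15, chr12:3806007-3914443, plus strand) read 207, 209.7 and 208 CPM in EV untreated, 232 and 234 CPM in EV auxin, 298, 295 and 288 CPM in FL auxin, and 232, 234 and 223 CPM in H373R auxin. The FL auxin libraries were above all others, EV untreated was below all others, and EV auxin overlapped with H373R auxin. Group means were 208 ± 1.59 (SD, n = 3), 233 ± 1.87 (n = 2), 294 ± 4.85 (n = 3) and 229.9 ± 5.95 CPM (n = 3).

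Dnmt3a rose by 0.16 ± 0.045 in EV auxin against EV untreated (edgeR adjusted p = 0.0183). That call was lost in 6 of 23 settings, with adjusted p up to 0.179, including without EV untreated replicate 3 or either EV auxin library. It rose by 0.33 ± 0.046 in FL auxin against EV auxin (adjusted p = 0.000125) and by 0.50 ± 0.041 against EV untreated, a 1.41-fold level (adjusted p = 4.52e-07). H373R auxin was 0.783 of the FL auxin level (log2 -0.35 ± 0.041, adjusted p = 9.01e-05), and these 3 calls held in all 23 settings. H373R auxin did not differ detectably from EV auxin (-0.019 ± 0.045, adjusted p = 0.811) and was above EV untreated by 0.14 ± 0.041 (adjusted p = 0.00927; 0.0527 without H373R auxin replicate 1). Removing trends with GC content and length raised the Dnmt3a differences from EV untreated to 0.71 in FL auxin and 0.36 in H373R auxin (adjusted p = 2.46e-11 and 1.4e-07). It also turned the difference of H373R auxin from EV auxin to 0.14, which then passed the test (adjusted p = 0.0162), while H373R auxin against FL auxin stayed at -0.35.

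Dnmt3b (ENSMUSG00000027478.15, chr2:153649450-153687730, plus strand) read 166, 172 and 169.6 CPM in EV untreated, 218 and 217 CPM in EV auxin, 210.1, 206 and 200.1 CPM in FL auxin, and 223, 222 and 214 CPM in H373R auxin. EV untreated was below every auxin library, and FL auxin was the lowest auxin group. Dnmt3b rose by 0.36 ± 0.046 in EV auxin (adjusted p = 4.99e-05), 0.28 ± 0.042 in FL auxin (adjusted p = 0.000127) and 0.37 ± 0.042 in H373R auxin (adjusted p = 4.63e-06), each against EV untreated and in all 23 settings. Among the auxin groups it was not called: -0.080 ± 0.047 for FL auxin against EV auxin, 0.015 ± 0.047 for H373R auxin against EV auxin and 0.095 ± 0.042 for H373R auxin against FL auxin (adjusted p = 0.233, 0.855 and 0.209). By limma on log2 TPM, in all 3 settings, FL auxin was called below EV auxin, at up to -0.15 (lowest adjusted p = 0.0216). Its near-copy Dnmt3c, 93.9% identical over 1434 bases, had 0 to 3 counts per library.

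As a result of the 2 patterns, the ratio of Dnmt3a to Dnmt3b in TPM was 0.373 to 0.381 in EV untreated, 0.327 to 0.331 in EV auxin, 0.435 to 0.442 in FL auxin and 0.320 to 0.324 in H373R auxin. No 2 of the 4 groups overlapped in this ratio. The sum of both genes was 172 ± 2.75 TPM (SD, n = 3) in EV untreated, and 216 ± 4.24 (n = 2), 211 ± 3.73 (n = 3) and 212 ± 4.49 TPM (n = 3) in EV auxin, FL auxin and H373R auxin.

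The start regions of both de novo genes are shown because windows of both genes hold the G-quadruplex pattern, 4 runs of at least 3 G joined by 1 to 7 bases, searched on both strands. Capitals mark it, runs of C are the pattern on the other strand, and matches that run past the printed bases are left unmarked. Dnmt3b is chr2:153649199-153649448 and Dnmt3a, the most downstream of its 3 windows, chr12:3891494-3891727, both plus strand, 5′ to 3′ and without annotated exons.
Dnmt3b: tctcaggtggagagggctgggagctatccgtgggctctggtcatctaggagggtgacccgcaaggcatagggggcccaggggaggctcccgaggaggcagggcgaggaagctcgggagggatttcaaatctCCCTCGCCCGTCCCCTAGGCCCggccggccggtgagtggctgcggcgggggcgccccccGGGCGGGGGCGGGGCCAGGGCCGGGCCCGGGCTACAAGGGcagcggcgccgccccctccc
Dnmt3a: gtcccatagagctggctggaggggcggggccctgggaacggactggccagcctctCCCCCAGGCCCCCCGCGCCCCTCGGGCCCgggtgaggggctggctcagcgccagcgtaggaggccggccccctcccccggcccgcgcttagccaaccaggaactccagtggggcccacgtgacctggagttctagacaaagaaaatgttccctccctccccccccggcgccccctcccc
The pattern was in 7 of the 16 windows, from 5 of the 9 genes with a window (Dnmt1, Dnmt3a, Dnmt3b, Dnmt3l and Tet3), and in 18.6% of all 32817 windows and 20.4% of all genes with a window. No Tet1, Tet2, Uhrf1 or Tdg window held it. A match describes the letters only, and counts per gene do not separate transcripts that begin at different starts.

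Dnmt3l (ENSMUSG00000000730.13, chr10:78041947-78063622, plus strand), the inactive cofactor, read 209, 195 and 193 CPM in EV untreated, 210.3 and 216 CPM in EV auxin, 230.0, 222 and 229.5 CPM in FL auxin, and 238, 242 and 239.9 CPM in H373R auxin. The groups followed one another in that order with no overlap between neighbours. The difference of EV auxin from EV untreated was 0.10 ± 0.049 (adjusted p = 0.175). Dnmt3l rose by 0.19 ± 0.044 in FL auxin and by 0.27 ± 0.044 in H373R auxin against EV untreated (adjusted p = 0.00324 and 0.000145), in all 23 settings. H373R auxin was 0.17 ± 0.049 above EV auxin (adjusted p = 0.0215), a call lost in 7 settings, with adjusted p up to 0.166, among them limma on log2 TPM and leaving out H373R auxin replicate 3 or either EV auxin library. With GC and length trends removed the difference of H373R auxin from EV untreated was 0.15 (adjusted p = 0.000417).

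The maintenance pair moved little. Dnmt1 (ENSMUSG00000004099.16, chr9:20907209-20959888, minus strand) read 439, 402 and 426 CPM in EV untreated, 435 and 453 CPM in EV auxin, 400.1, 399 and 399 CPM in FL auxin, and 408, 394 and 387 CPM in H373R auxin. EV untreated overlapped with EV auxin, and FL auxin overlapped with H373R auxin. Against EV untreated Dnmt1 was not called in EV auxin (0.072 ± 0.050, adjusted p = 0.344). Nor was it called in FL auxin (-0.082 ± 0.044, adjusted p = 0.166) or H373R auxin (-0.091 ± 0.044, adjusted p = 0.108). With GC and length trends removed, H373R auxin against EV untreated was at -0.12 and was called (adjusted p = 0.00421). Dnmt1 fell by 0.15 ± 0.050 in FL auxin and by 0.16 ± 0.049 in H373R auxin, each against EV auxin (adjusted p = 0.0349 and 0.0282). The first of these was lost in 13 of 23 settings and the second in 6, with adjusted p up to 0.291 and 0.221. Among these settings were leaving out either EV auxin library for both, any of the other auxin libraries for the first, and H373R auxin replicate 2 or 3 for the second.

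Uhrf1 (ENSMUSG00000001228.14, chr17:56303321-56323486, plus strand) was called in no comparison. It read 332, 299.6 and 315 CPM in EV untreated, 318 and 319 CPM in EV auxin, 333, 329.9 and 334 CPM in FL auxin, and 347, 341 and 333 CPM in H373R auxin. EV untreated replicate 1, the library that stood apart, was the highest of its group. Without it, Uhrf1 was above EV untreated by 0.11 in FL auxin and 0.14 in H373R auxin (adjusted p = 0.0328 and 0.00857). With GC and length trends removed and that library kept, the same differences were 0.033 and 0.0026 (adjusted p = 0.453 and 0.956). The ratio of Uhrf1 to Dnmt1 in TPM was 1.28 to 1.31 in EV untreated, 1.22 to 1.26 in EV auxin, 1.43 to 1.45 in FL auxin and 1.47 to 1.499 in H373R auxin. It was thus higher in every library with a reintroduced CTCF form than in any library without.

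Prdm14 (ENSMUSG00000042414.7, chr1:13113457-13127163, minus strand, a single annotated transcript), the regulator of the set, was highest in untreated cells. It read 46.2, 43.3 and 44.5 CPM in EV untreated, 33.2 and 34.2 CPM in EV auxin, 35.0, 36.0 and 35.3 CPM in FL auxin, and 37.1, 37.1 and 38.8 CPM in H373R auxin. All 4 groups were separate from one another. Prdm14 fell by 0.41 ± 0.060 in EV auxin, by 0.34 ± 0.054 in FL auxin and by 0.25 ± 0.052 in H373R auxin against EV untreated (adjusted p = 0.00017, 0.000204 and 0.00135), in all 23 settings. Between auxin groups no difference was called, the largest being 0.16 ± 0.061 for H373R auxin against EV auxin (adjusted p = 0.0703). That difference passed the test in 3 of the settings, among them without EV untreated replicate 1 (adjusted p = 0.0262) and with GC and length trends removed (adjusted p = 0.0219). Each of the 8 auxin libraries thus had less Prdm14 and more Dnmt3b than any EV untreated library. Among the auxin groups the 2 genes did not run opposite: H373R auxin had the highest mean of both, 37.7 CPM for Prdm14 and 219.5 CPM for Dnmt3b. A link between the 2 genes was not tested.

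**Figure D4:**
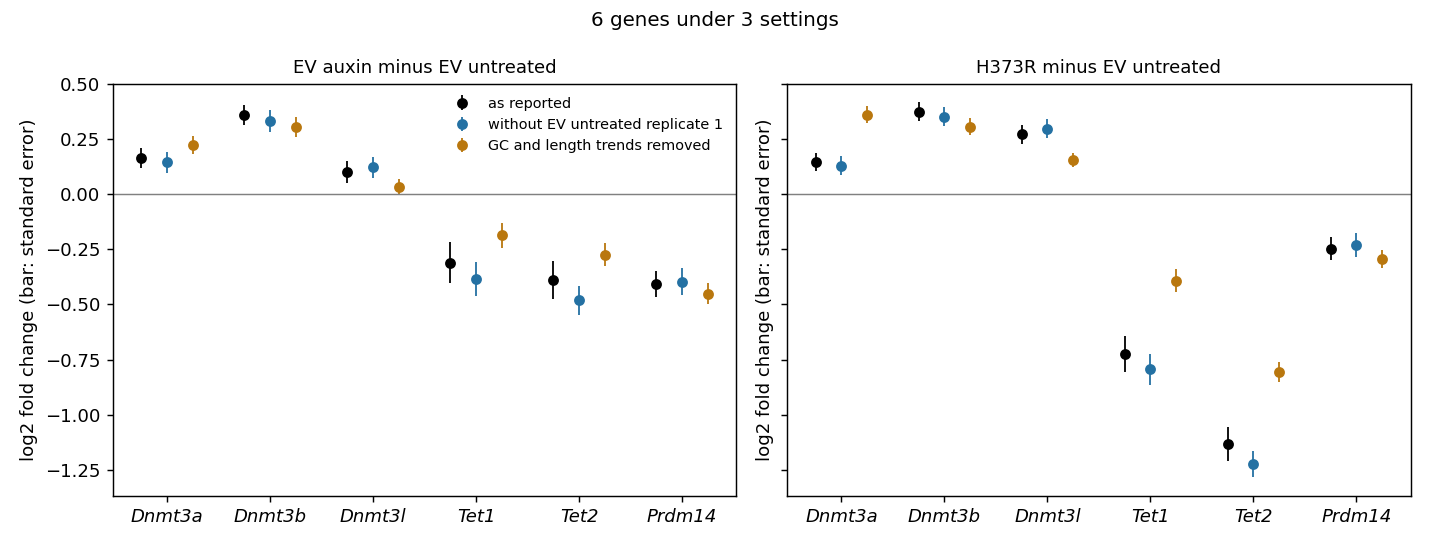
Log2 fold change of 6 of the genes as reported (black), without EV untreated replicate 1 (blue) and with GC and length trends removed (ochre), for EV auxin and H373R auxin minus EV untreated; bars are SE. Every value keeps its sign; removing the trends brings Tet1 in H373R auxin from -0.72 to -0.39 and raises Dnmt3a from 0.14 to 0.36.

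Tdg (ENSMUSG00000034674.18, chr10:82629828-82650799, plus strand), the glycosylase of active demethylation, was called in no comparison. It read 28.6, 20.998 and 21.4 CPM in EV untreated, 21.9 and 21.1 CPM in EV auxin, 25.4, 23.2 and 21.5 CPM in FL auxin, and 20.8, 21.04 and 19.6 CPM in H373R auxin. The highest value was that of EV untreated replicate 1. Without that library the difference of EV auxin from EV untreated went from -0.15 to 0.0016, and that of H373R auxin from EV untreated from -0.22 to -0.064 (adjusted p = 0.991 and 0.478).

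Counts of Tdg are uncertain because a processed pseudogene, Gm9855 (chr10:42054113-42055306, minus strand), is 99.2% identical to it over 1194 bases. Gm9855 held 1.31 to 1.71 times as many counts as Tdg in every library. Since the authors' counting could split reads between the 2 copies, their counts were also added, a choice made after the values were seen. The sum was 56.9 to 66.1 CPM in EV untreated, 52.5 to 55.6 CPM in EV auxin, 54.1 to 58.5 CPM in FL auxin and 51.3 to 53.2 CPM in H373R auxin. H373R auxin was then below EV untreated by 0.20 ± 0.063 (log2 -0.20, adjusted p = 0.0165), and no other comparison was called. EV untreated replicate 1, at 66.1 CPM, was far above the other 2 libraries of its group, both at 56.9 CPM, and without it the difference was -0.135 ± 0.052 (adjusted p = 0.0312). Gm9855 alone was also lower in H373R auxin than in EV untreated (-0.20 ± 0.055, adjusted p = 0.00952; -0.18 without replicate 1, adjusted p = 0.0104), whereas Tdg alone was not called (-0.22 ± 0.10, adjusted p = 0.1). Tdg alone did pass without EV untreated replicate 2 or 3 (adjusted p = 0.0428 and 0.0491). Which copy the reads came from was not tested.

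**Figure D5:**
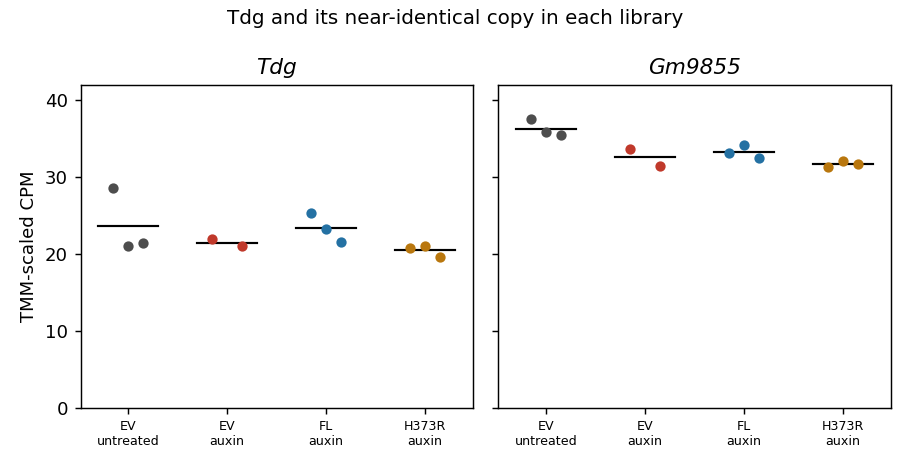
Tdg (left) and its near-identical copy Gm9855 (right) in each library, in CPM from 0, with group means as lines. Gm9855 lies above Tdg in every library, and EV untreated replicate 1 is the highest library for Tdg, at 28.6 CPM.

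Reads of 4 of the genes could also include those of a partner on the opposite strand, because the strand setting of the counting is not given in the sources used here. The overlaps are short: 133 bases of Dnmt3a with Dnmt3aos, 67 bases of Dnmt3l with Aire, 43 bases of Tet2 with Gm42567 and 367 bases of Tdg with Glt8d2.

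Around the 10 genes, 67 others of the same pathway were followed in 6 lists, and 66 of them could be tested. Unlike those of the 10 genes, their results were not examined without EV untreated replicate 1. In EV auxin against EV untreated 16 of 66 were called, 8 higher and 8 lower, close to the 20.7% of all genes tested. In H373R auxin against FL auxin 3 of 66 were called, beside 5.96% of all genes: Dppa3 as higher and Mat2a and Fgfr2 as lower. The other comparisons had 18 of 66 called in FL auxin and 22 of 66 in H373R auxin against EV auxin, and 25 and 33 of 66 against EV untreated, beside 24.5%, 21.7%, 36.9% and 44.4% of all genes.

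Of the 10 maintenance partners 2 were called in EV auxin. Dppa3, whose protein is known to displace UHRF1 from chromatin, had the largest fold change named here. It read 16.1, 14.9 and 14.4 CPM in EV untreated, 31.5 and 31.3 CPM in EV auxin, 12.4, 13.2 and 11.6 CPM in FL auxin, and 16.4, 15.7 and 16.4 CPM in H373R auxin. The EV auxin libraries were far above all others, and FL auxin was the lowest group. Dppa3 rose by 1.05 ± 0.075 in EV auxin against EV untreated (edgeR adjusted p = 9.27e-08) and fell by 1.35 ± 0.080 in FL auxin and by 0.96 ± 0.075 in H373R auxin against EV auxin (adjusted p = 6.44e-08 and 4.33e-06). H373R auxin was 0.39 ± 0.076 above FL auxin (adjusted p = 0.00645). Against EV untreated, Dppa3 was not called with H373R CTCF (0.090 ± 0.071, adjusted p = 0.328) and was lower with FL CTCF (-0.30 ± 0.076, adjusted p = 0.00669). Hdac1, a histone deacetylase, fell by 0.30 ± 0.060 in EV auxin (adjusted p = 0.00228), and Cdca7, which recruits the remodeller HELLS, was at -0.078 ± 0.053 (adjusted p = 0.336).

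Of the 10 methyl-CpG readers and imprint protectors 2 were called in EV auxin, both higher. Zfp57, which protects imprinted methylation, rose by 0.22 ± 0.054 (adjusted p = 0.00783), and Zbtb4, a methyl-CpG binding zinc finger protein, by 0.49 ± 0.15 (adjusted p = 0.0361). Mbd2 was at 0.14 ± 0.088 (adjusted p = 0.305). In H373R auxin against FL auxin none of the 10 was called, the smallest adjusted p being that of Zfp57 (-0.10 ± 0.049, adjusted p = 0.259).

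Of 17 genes of active demethylation, repair and TET cofactor supply, 4 were called in EV auxin, 1 higher and 3 lower. The 2 isocitrate dehydrogenases that make the TET cosubstrate alpha-ketoglutarate went opposite ways: Idh1, the cytosolic form, fell by 0.33 ± 0.070 and Idh2, the mitochondrial form, rose by 0.30 ± 0.065 (adjusted p = 0.0034 and 0.00418). Idh2 rose further in FL auxin, by 0.52 ± 0.066 against EV auxin (adjusted p = 6.65e-05), and in H373R auxin, by 0.39 ± 0.065 (adjusted p = 0.000868). Ung, a uracil glycosylase, fell by 0.29 ± 0.084 in EV auxin (adjusted p = 0.0219). EV untreated replicate 1 stood apart for Ung, at 148 CPM against 119 and 117 CPM in replicates 2 and 3. It did so for Idh1 as well, at 195 CPM against 236 and 235 CPM. Apex1, an abasic site endonuclease, had the smallest adjusted p of the list in H373R auxin against FL auxin and was not called (-0.14 ± 0.043, adjusted p = 0.0644).

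Of 9 genes for chromatin marks that guide de novo methylation, 2 were called in EV auxin. The lysine demethylase gene Kdm1a fell by 0.35 ± 0.045 and its paralog Kdm1b, needed for maternal imprints in oocytes, rose by 0.33 ± 0.071 (adjusted p = 4.16e-05 and 0.00344). Kdm1b fell again in FL auxin (-0.43 ± 0.072, adjusted p = 0.000617) and H373R auxin (-0.42 ± 0.071, adjusted p = 0.000825) against EV auxin, whereas Kdm1a stayed 0.30 ± 0.040 and 0.39 ± 0.040 below EV untreated (log2 -0.30 and -0.39, adjusted p = 4.07e-05 and 2.06e-06). Nsd2, which methylates histone H3, was at 0.15 ± 0.055 in EV auxin (adjusted p = 0.0642).

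Of 13 genes that supply the methyl donor S-adenosylmethionine, 12 could be tested and 2 were called in EV auxin. Mthfd1, an enzyme of folate metabolism, fell by 0.22 ± 0.043 (adjusted p = 0.0017), and Mtrr, which reactivates methionine synthase, was at 0.11 ± 0.053 (adjusted p = 0.185). Mat2a, which makes S-adenosylmethionine, read 158, 186 and 183 CPM in EV untreated and 181 CPM in each EV auxin library. It read 137, 151 and 149 CPM in FL auxin and 119, 129.6 and 121 CPM in H373R auxin, so that the 2 reintroduction groups did not overlap. It fell by 0.24 ± 0.064 in H373R auxin against FL auxin (adjusted p = 0.0372).

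Of 8 genes related to PRDM14 and the pluripotent state, 4 were called in EV auxin. Klf4, a pluripotency factor, rose by 0.35 ± 0.046, and Cbfa2t3, a corepressor of the family that binds PRDM14, by 0.56 ± 0.12 (adjusted p = 5.32e-05 and 0.0039). Tcl1 fell by 0.44 ± 0.068 (adjusted p = 0.00023). Fgfr2, a fibroblast growth factor receptor, was lower in H373R auxin than in FL auxin by 0.40 ± 0.089 (log2 -0.40, adjusted p = 0.013). Its H373R auxin libraries, at 6.11 to 6.65 CPM, lay below every other library, which were at 7.80 to 8.52 CPM.

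The genes whose pattern was most like that of Tet2 and Dnmt3a were sought among 12716 tested genes, by the mean absolute difference of centred log2 CPM over the 4 group means. For Tet2 they were Gm10033 (a difference of 0.036), Tspan8 (0.041) and Phf20l1 (0.045). Phf20l1, for example, had group means of 15.0, 12.2, 9.22 and 7.63 CPM, in the order of untreated cells, depleted cells, FL CTCF and H373R CTCF. For Dnmt3a they were AA414768 (0.017), Rhox5 (0.021) and Cxcl12 (0.022). Rhox5, an X-linked homeobox gene, had group means of 51.8, 59.7, 73.1 and 55.7 CPM in the same order. With 4 points per gene, and many candidates, these lists describe shape only.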

How the data were processed

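Libraries were prepared from 200 ng RNA with a kit that keeps strand and read on a NovaSeq instrument, per the labels' protocols. The authors deposited raw counts per gene symbol and TPM for the same 11 libraries. Per the submitters' processing notes, featureCounts, Subread 2.0.3 and DESeq2 were used, with builds mm10 and GRCm38. The aligner, annotation and strand setting are not given in the sources used here. The deposited TPM values imply exon lengths equal to those of GENCODE M21 for all 10 genes, and within 1% for 98.76% of tested genes, so M21 supplied coordinates, lengths and GC content. Another EV auxin library was not analysed here.

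The test on counts was that of edgeR 4.0.16 (R 4.3.3): filterByExpr (16420 genes kept), TMM scaling and a group-means quasi-likelihood fit over all 11 libraries, with Benjamini-Hochberg adjustment and a threshold of 0.05. All libraries were fitted together because EV auxin has 2. CPM are TMM-scaled. The common biological coefficient of variation was 0.0578. The settings tried instead were scaling by RLE or by upper quartile, the tool DESeq2 1.42.0, a filter of 10 counts per library or none, a fit without the other groups, a replicate block, limma 3.58.1 on log2(TPM + 1) or log2(TPM + 0.1), a threshold of 0.01, and leaving out each library. The removal of GC and length trends and the adding of Gm9855 counts to Tdg were chosen after seeing the data. On simulated data for EV auxin against EV untreated (16420 genes), edgeR recovered 80.5% of 200 genes changed 2-fold, with 9 false calls. Changes smaller than 2-fold, the size of most differences reported here, and the GC trend of EV untreated replicate 1 were not simulated.

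Near-identical copies were found with blastn 2.17.0 (at least 90% identity over 200 bases). Promoter windows are RefSeq's on GRCm38.p6, and 9 of the 10 genes matched.

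The genes and lists were chosen with earlier results of these data known. All 10 genes are described. From each of the 6 lists, the 3 genes with the smallest adjusted p in EV auxin against EV untreated and the 1 with the smallest in H373R auxin against FL auxin are named, and also the 3 genes most alike to each of the 2 members with the smallest adjusted p. A result that this rule would name is not reported here.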

Additional observations from a re-analysis of the deposited data

Results flagged for a closer look

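The effects of the 2 reintroduced CTCF forms, each taken against EV auxin, differed for 2 of the 10 genes by the direct test of H373R auxin against FL auxin. Of all genes tested 5.96% were called in that comparison. For Dnmt3a the difference was -0.353 on the log2 scale: 3 of 3 H373R auxin libraries, at 223 to 234 CPM, lay below 3 of 3 FL auxin libraries, at 288 to 298 CPM. For Tet2 it was -0.349, with H373R auxin at 53.6 to 60.4 CPM and FL auxin at 64.5 to 78.0 CPM. The Tet2 call was lost in 8 of 23 alternative settings, and the Dnmt3a call held in all 23. The primitive endoderm markers, at 39.9 to 44.1 and 61.6 to 66.7 TPM in H373R auxin and FL auxin, differed between the same libraries, and their part was not tested. The level of each CTCF form is not given in the sources used here.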

How the results depend on the processing

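Over 1392 values of the 10 genes under alternatives, 1278 kept their direction and side of the threshold, 55 lost a call, 32 gained one and 27 changed sign, none of these among called genes. The number of genes called in EV auxin against EV untreated was 3 by limma with no TPM filter, 3 at an adjusted p under 0.01, and 3 to 7 when 1 library was left out. For H373R auxin against EV auxin it was 3, 3 and 1 to 6 in the same settings. For FL auxin against EV auxin it was 1 to 4 with 1 library left out. For H373R auxin against FL auxin it was 1 by limma on log2(TPM + 1), 1 on log2(TPM + 0.1), 1 with no TPM filter, 1 at 0.01 and 1 to 5 with 1 library left out. For FL auxin and H373R auxin against EV untreated it was 6 to 7 with 1 library left out. Counts over all genes ranged from 1569 to 5444 (3392 as reported) for EV auxin against EV untreated, 1879 to 5874 (4016) for FL auxin and 1502 to 5909 (3570) for H373R auxin against EV auxin, 436 to 2323 (979) for H373R auxin against FL auxin, and 3980 to 7706 (6052) for FL auxin against EV untreated.

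No value that changed sign was called as reported. Uhrf1 in EV auxin against EV untreated was at -0.00079 with RLE scaling, -0.0011 with DESeq2, -0.0011 with only the libraries compared, -0.054 with trends removed, and -0.029, -0.0016, -0.0019 and -0.0021 without EV untreated replicate 2, EV auxin replicate 2, H373R auxin replicate 1 or 3 (0.038 at most, without EV untreated replicate 1). By limma with a pseudocount of 1, of 0.1 and with no TPM filter, Uhrf1 in FL auxin against EV auxin was at -0.0040, -0.0040 and -0.0040, Dnmt3b in H373R auxin against EV auxin at -0.022, -0.022 and -0.022, Dnmt1 in H373R auxin against FL auxin at 0.019, 0.019 and 0.019, and Tet3 in FL auxin against EV untreated at -0.0070, -0.0093 and -0.0070. Dnmt3a in H373R auxin against EV auxin was between -0.026 and 0.0075 with 1 library left out, the last without H373R auxin replicate 3, and at 0.14 with trends removed, and Uhrf1 in H373R auxin against FL auxin at -0.031 with trends removed. Tdg in FL auxin against EV untreated was between -0.095 and 0.14 with 1 library left out (0.14 and 0.038 without EV untreated replicate 1 or FL auxin replicate 3) and at 0.0066 with trends removed, and in EV auxin against EV untreated between -0.23 and 0.0016 with 1 library left out, the last without EV untreated replicate 1. The cause was not tested.

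No scaling moved the median of all genes by 0.1 on the log2 scale. By limma on TPM the share of calls that were higher went from 45.2% to 28.1% in FL auxin against EV auxin, from 46.1% to 35.4% in H373R auxin against EV auxin and from 52.7% to 65% in H373R auxin against FL auxin. With trends removed the first was 58% and the last 39.1%. The replicate numbers were not taken to pair libraries, since the labels do not say what they share and of 15 same-number pairs only 3 had a correlation of deviations over 0.1 (range -0.087 to 0.282). As a hint of a shared factor, 7 of 11 libraries correlated best with their own number, and the same-number pairs of EV untreated and FL auxin were at 0.282, 0.119 and 0.0957. With a replicate block the counts were 5, 2, 5, 2, 6 and 6 for EV auxin against EV untreated, FL auxin and H373R auxin against EV auxin, H373R auxin against FL auxin, and FL auxin and H373R auxin against EV untreated, Dnmt1 in FL auxin against EV auxin being the call lost.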
